A study of Astyanax mexicanus with 26 samples.

Results

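H3K27ac in the adult liver was compared between fish of the Pachón cave and fish of the Tinaja cave, a pair of cave populations of the Mexican tetra, *Astyanax mexicanus*. The members were chosen by merging overlapping or touching peaks of the Pachón and Tinaja H3K27ac lists, which gave 134417 regions. Merging the peaks of all 9 lists of the study gave 276666 regions. The Pachón list stands for 2 libraries and the Tinaja list for 3, so 5 of the 26 libraries stand behind this comparison. The study profiled H3K27ac, H3K4me3 and H3K27me3 in both caves and in river-dwelling surface fish, by chromatin immunoprecipitation of formaldehyde-fixed livers and single-read sequencing. The remaining 7 lists were used here only to annotate the regions. The labels give no treatment, genotype, sex or age beyond adult, and do not say whether livers were pooled for a library. They do not say either whether the fish were caught or bred.

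Acetylation of histone H3 at lysine 27 is laid down by the acetyltransferases CBP and p300 at active promoters and enhancers. H3K4me3 marks promoters, above all those in CpG islands, and H3K27me3 is written by Polycomb repressive complex 2 at silent developmental genes. One lysine cannot carry an acetyl group and methyl groups at once, so the 2 H3K27 marks at one place come from different histone tails, alleles, cells or animals. Fish of both caves are known for starvation resistance and large fat stores, and the liver is a main organ of that metabolism.

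There was 1 list per cave, so the spread between replicates is not known for any value and no test between the caves was made. Intervals are exact binomial or log-scale 95% intervals and cover counting error only. Neighbouring regions are not independent, which makes these intervals too narrow as statements about the genome. Library number 1934 occurs in both caves, 1889 in Pachón alone and 2005 in Tinaja alone. A value within library number 1934 could not be had from pooled lists, so library number and cave cannot be told apart. Per the labels, the background was the total chromatin of number 1889 for both Pachón libraries and of number 1934 for the 3 Tinaja libraries. The read depth behind the lists is unknown. In whole liver, fewer cells with a mark and less of the mark per cell cannot be told apart, and the liver label could not be checked against marker genes, as no gene could be placed on these coordinates. No sequence is shown, since no genome of the lists' build was at hand.

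The caves shared the larger part of their H3K27ac regions. Pachón had 93527 peaks covering 54.3 Mb and Tinaja 117125 peaks covering 67.4 Mb. Both caves had a peak at 72540 regions, or 54.0% of the 134417 (95% interval 53.7 to 54.2). Pachón alone had 18624 regions, 13.9% of all, and Tinaja alone 43253 regions, 32.2% of all. Of the Pachón peaks, 80.1% met a Tinaja peak (79.8 to 80.3), and 63.1% of the Tinaja peaks met a Pachón peak (62.8 to 63.3). By length, 43.2 Mb lay in both lists, which was 55.1% of the 78.5 Mb covered by either.

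The Tinaja list was the longer, so both lists were also cut to 93527 peaks by width. This removed the 23598 narrowest Tinaja peaks and left none under 323 bp there, while the Pachón list stayed whole down to 200 bp. The lists were then equal in number of peaks and not in length, with 60.9 Mb covered in Tinaja against 54.3 Mb in Pachón. With equal lists the one-cave classes held 25966 regions for Pachón alone (21.9%) and 27389 regions for Tinaja alone (23.1%). Shared regions whose Tinaja peaks were all cut count there as Pachón alone. The regions of both caves numbered 65199, or 55.0% of 118554. Lists of the same length that share most peaks 1 to 1 must leave similar numbers of one-cave regions, so this evenness follows from the cut. The numbers of one-cave regions in either setting cannot be read as an amount of the mark.

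Sharing depended on peak width. Among Pachón peaks of 200 to under 300 bp, 49.7% met a Tinaja peak, among those of 400 to under 600 bp 84.4%, and among those of 1000 to under 2000 bp 98.6%. Among Tinaja peaks of the same widths, 30.05%, 65.7% and 94.96% met a Pachón peak. Of the widest peaks, from 2000 bp, 757 of 768 in Pachón and 1195 of 1210 in Tinaja met the other cave. Between 400 and 2000 bp, where the cut to equal length removed no peak of either list, Tinaja peaks were the less often shared. At 600 to under 1000 bp, with equal lists, 83.7% of Tinaja peaks were shared (83.2 to 84.2) against 92.8% of Pachón peaks (92.4 to 93.1). Peaks of 1 kb or more without a counterpart numbered 130 in Pachón and 554 in Tinaja with the full lists. The cut to equal length removed no peak of this width, but it removed narrow Tinaja peaks that wide Pachón peaks had met. With equal lists the numbers were 160 and 554. The cause of the difference was not tested.

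**Figure D1:**
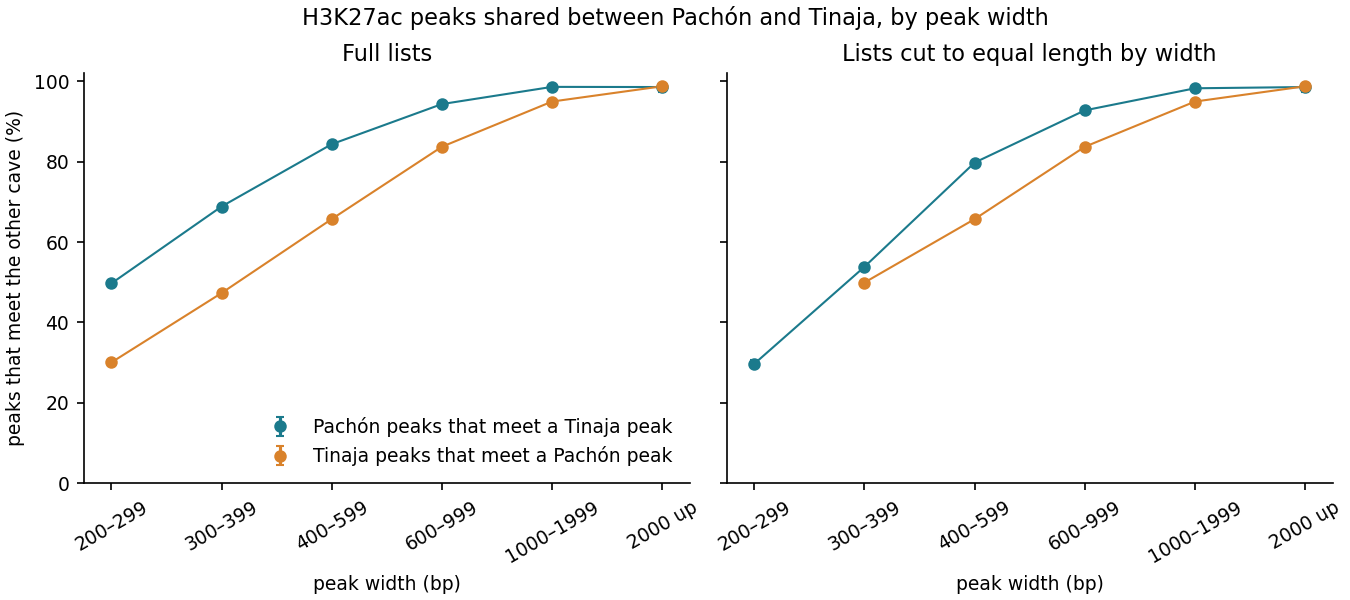
Share of H3K27ac peaks of each cave that overlap a peak of the other cave (vertical axis, %) in 6 bins of peak width in bp (horizontal axis), for the full lists (left) and for lists cut to equal length by width (right); bars are exact 95% binomial intervals, often smaller than the points. Sharing climbs with width in both caves, from 49.7% to 98.6% in Pachón and from 30.05% to 98.8% in Tinaja with the full lists.

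Where both caves had H3K27ac, the extent of the peak was much the same. Of the 72540 shared regions, 69217 held 1 peak of each cave. In these the median width was 517 bp in Pachón and 544 bp in Tinaja, and the centres of the paired peaks lay a median of 28.5 bp apart. The log2 ratio of Tinaja to Pachón width had a median of 0.05, with 90% of the regions between -0.56 and 0.73. The Spearman correlation of the widths over these regions was 0.80, given as a description over points that share one genome and one peak caller. The Tinaja peak was more than 2 times as wide at 1631 of the regions and the Pachón peak at 927. The narrow end of the lists enters the second number, which was 570 with equal lists, against 1632 for Tinaja.

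The same surface lists annotate every class, so they serve as one yardstick for both caves. They do not offset a difference in depth between the cave lists, which would change the weak peaks in a one-cave class. The surface H3K27ac and H3K4me3 libraries carry number 1930, which neither cave has. The one-cave classes differed on all 3 surface lists. Of the Pachón-only regions, 27.7% met surface H3K27ac (27.05 to 28.3), against 12.2% of the Tinaja-only regions (11.9 to 12.5) and 69.9% of the regions of both caves. Surface H3K27ac met 45.5% of all regions. The share in Pachón-only was 2.27 times that in Tinaja-only (2.195 to 2.35), so a larger share of Pachón-only regions recurred in surface fish. In number the classes were near level, with 5157 of 18624 Pachón-only and 5272 of 43253 Tinaja-only regions. With the full lists the ratio thus goes with the larger size of the Tinaja-only class. It does not rank either cave as nearer to surface fish. With lists of equal length the shares were 29.9% (7770 regions) and 13.97% (3825 regions), beside 50.3% of all regions, and their ratio was 2.14. The ratio was 1.31 in the wider 50% of each list. In both of these settings a shared region becomes a one-cave region wherever the cut drops the other cave's peak. With equal lists this enters the Pachón-only class alone, which rose from 18624 to 25966 regions.

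H3K4me3 of surface fish stood the other way round. It met 8.56% of Pachón-only regions (8.16 to 8.97) and 18.8% of Tinaja-only regions (18.5 to 19.2), beside 36.5% of regions of both caves and 26.9% of all regions. The Tinaja-only share was 2.201 times the Pachón-only share (2.09 to 2.32). With lists of equal length the shares were 8.61% and 24.7%, beside 29.4% of all regions, and the ratio was 2.87. The cut raised the median width of Tinaja-only regions from 358 to 428 bp. Equal lists within 10 bins of region width, added after the data were seen, gave 2.10 (2.00 to 2.21). Over all widths, a promoter mark was therefore more common at Tinaja-only than at Pachón-only H3K27ac, and less common in either than at shared regions. The shared regions are wider, and at the same width the order of Tinaja-only and shared regions changed. Below 600 bp Tinaja-only regions stood above shared regions, with 14.1% against 10.1% at 300 to under 400 bp. At 600 to under 1000 bp they stood below, with 42.1% against 46.15%.

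H3K27me3 of surface fish met 12.0% of Pachón-only regions (11.5 to 12.5), 32.5% of Tinaja-only regions (32.0 to 32.9) and 17.3% of regions of both caves, with 21.4% over all regions. Tinaja-only thus stood above the shared regions and Pachón-only below them. The ratio of Tinaja-only to Pachón-only was 2.71 (2.60 to 2.83). With equal lists the shares were 12.3% and 38.3%, beside 21.3% of all regions, and the ratio was 3.12. Within bins of width, equal lists gave 2.49 (2.39 to 2.59). In the wider 50% of each list the ratio was 1.77, and among regions with no peak of the other cave within 5 kb it was 1.79. The H3K27me3 lists of the caves gave nearly the same picture as that of surface fish. Pachón H3K27me3 met 11.01% of Pachón-only, 32.2% of Tinaja-only and 20.9% of all regions, and Tinaja H3K27me3 met 11.25%, 33.3% and 21.1%. With equal lists the Pachón list met 11.4%, 38.1% and 20.7%, and the Tinaja list 11.8%, 38.9% and 20.8%. The 3 H3K27me3 lists have 97948 to 99370 peaks.

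**Figure D2:**
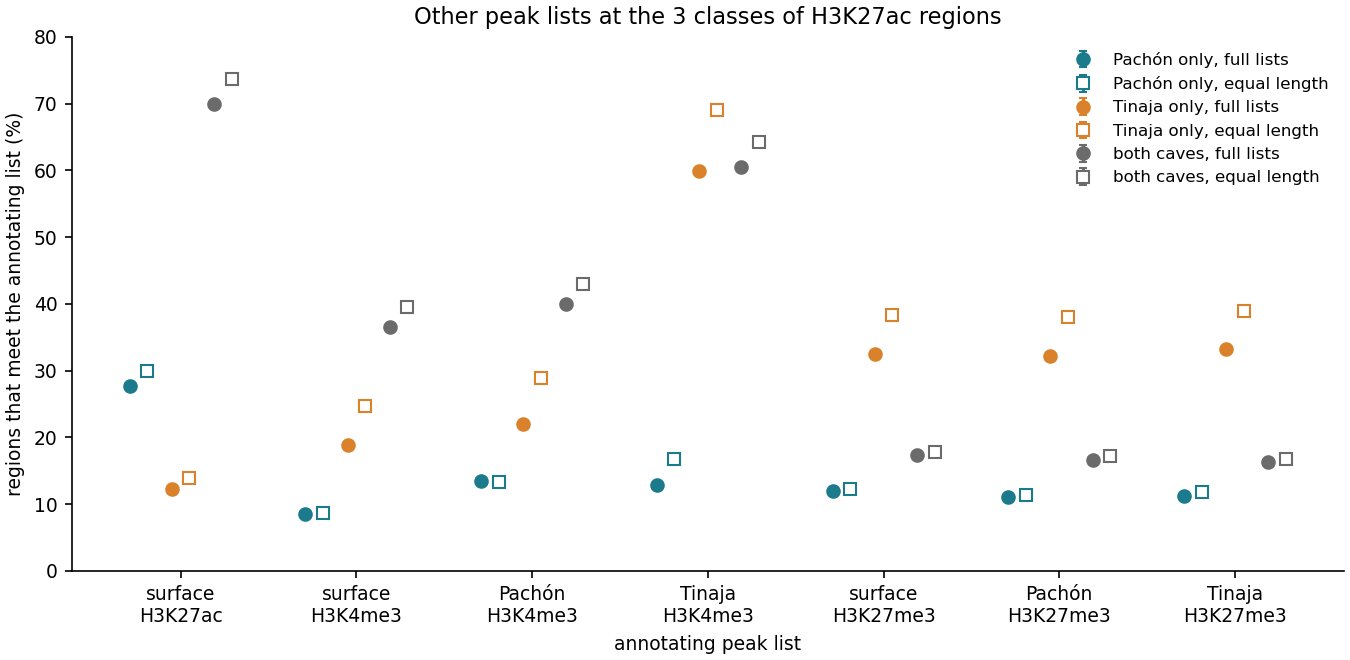
Share of H3K27ac regions (vertical axis, %) that overlap each of the 7 other peak lists (horizontal axis), for regions of Pachón only, Tinaja only and both caves; filled circles are full lists, open squares are H3K27ac lists cut to equal length, bars are exact 95% binomial intervals. All 3 H3K27me3 lists meet Tinaja-only regions at 32.2% to 33.3% and Pachón-only regions at 11.01% to 12.0% with the full lists.

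One-cave regions were narrow, with median widths of 340 bp in Pachón-only, 358 bp in Tinaja-only and 616 bp in regions of both caves, and wide regions meet other lists more often. The classes were therefore compared at the same width. At 300 to under 400 bp, surface H3K27ac met 28.1% of Pachón-only regions (27.03 to 29.2) and 11.8% of Tinaja-only regions (11.3 to 12.4). At the same width surface H3K27me3 met 11.3% (10.6 to 12.1) and 29.4% (28.7 to 30.1). At 600 to under 1000 bp the shares for H3K27ac were 38.5% and 18.1%, and those for H3K27me3 18.3% and 48.0%. Over 10 bins of width the pooled ratio was 2.37 for H3K27ac, Pachón-only over Tinaja-only, and 2.58 for H3K27me3, Tinaja-only over Pachón-only. For H3K4me3, Tinaja-only over Pachón-only, it was 2.00.

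From 1 kb up the Tinaja-only class held 554 regions, of which 313 met surface H3K4me3 (56.5%, 52.2 to 60.7) and 274 met surface H3K27me3 (49.5%, 45.2 to 53.7). In the 130 Pachón-only regions of that width the numbers were 49 and 46 (37.7% and 35.4%). For H3K27me3 at this width the intervals of the classes nearly touched, the Pachón-only interval running from 27.2 to 44.2. Regions of both caves from 1 kb up met surface H3K4me3 at 65.9% and surface H3K27me3 at 14.9%. Wide H3K27ac found in a single cave thus lay on H3K27me3 of surface fish more often than wide shared H3K27ac did.

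**Figure D3:**
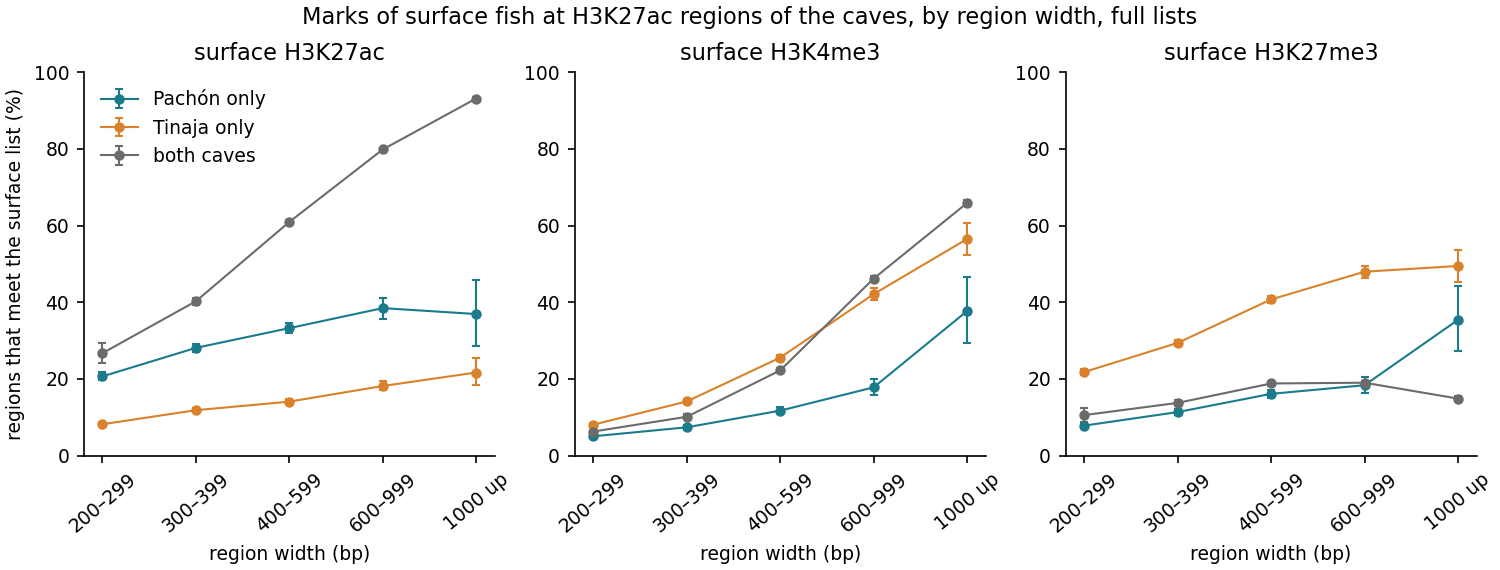
Share of H3K27ac regions that overlap a surface peak (vertical axis, %) in 5 bins of region width in bp (horizontal axis), for surface H3K27ac, H3K4me3 and H3K27me3 from left to right; lines join the classes and bars are exact 95% binomial intervals, full lists. Below 1000 bp Pachón-only regions lie above Tinaja-only regions for H3K27ac and below them for H3K4me3 and H3K27me3.

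Combinations of marks were first counted with the surface lists. Neither H3K4me3 nor H3K27me3 of surface fish was listed at 82.5% of Pachón-only regions (81.9 to 83.0) and 58.2% of Tinaja-only regions (57.7 to 58.7), with 53.0% in regions of both caves and 58.8% over all regions. H3K4me3 together with H3K27me3 of surface fish was listed at 3.00% of Pachón-only regions (2.76 to 3.26), 9.53% of Tinaja-only regions (9.26 to 9.81), 6.76% of regions of both caves and 7.13% of all. Tinaja-only regions thus stood above the whole, and Pachón-only regions below it, for the pair of marks.

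Counts that use the cave lists gave wider gaps. The length of the Tinaja H3K4me3 list, 136219 peaks against 64432 in Pachón, enters those with H3K4me3 of Tinaja or of every morph. It does not enter those made from Pachón lists alone or from H3K27me3 alone. H3K27ac without H3K4me3 is a pattern found at enhancers. With H3K4me3 of every morph counted, it made up 79.1% of Pachón-only regions, 39.1% of Tinaja-only regions, 37.01% of regions of both caves and 43.5% of all regions. Neither H3K4me3 nor H3K27me3 of any morph was listed at 71.6% of Pachón-only, 30.4% of Tinaja-only and 32.0% of shared regions, and at 36.97% of all. H3K4me3 and H3K27me3 of Tinaja met together at 27.3% of Tinaja-only regions (26.9 to 27.7), against 13.04% of shared and 16.6% of all regions. The pair of Pachón lists met at 4.97% of Pachón-only regions (4.66 to 5.29), against 8.87% of shared and 9.86% of all regions. H3K27me3 of all 3 morphs was present at 10287 Tinaja-only regions, 23.8% of the class, at 1224 Pachón-only regions, 6.57%, and at 8095 regions of both caves, 11.2%. Over all regions its share was 14.6%.

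In each class, surface H3K27ac was less common where H3K27me3 was listed in all 3 morphs than where it was listed in none, and in the one-cave classes it was scarce there. At the 10287 Tinaja-only regions with H3K27me3 in all 3 morphs, 339 met surface H3K27ac (3.29%, 2.96 to 3.66), and at the 1224 such Pachón-only regions 123 did (10.05%, 8.42 to 11.9). Regions of both caves with H3K27me3 in all 3 morphs met surface H3K27ac at 50.5%. Over all regions with H3K27me3 in all 3 morphs the share was 23.2%. Where no morph had H3K27me3, the shares were 17.2% in Tinaja-only, 30.7% in Pachón-only and 75.7% in regions of both caves. Over all regions without H3K27me3 in any morph it was 53.2%. The lower recurrence of Tinaja-only than Pachón-only regions in surface fish was therefore present outside H3K27me3 too.

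All 3 H3K4me3 lists met Tinaja-only regions more often than Pachón-only regions, by the widest margin for the Tinaja list. For the surface list, given above, the shares were 18.8% and 8.56%. Pachón H3K4me3 met 13.53% of Pachón-only and 21.97% of Tinaja-only regions, with 30.5% over all regions. Tinaja H3K4me3 met 12.9% and 59.96%, with 53.7% over all regions. With H3K27ac lists of equal length, Pachón H3K4me3 met 13.3% and 28.8% (33.2% of all) and Tinaja H3K4me3 16.7% and 68.98% (54.9% of all). Tinaja H3K4me3 met 60.4% of regions of both caves with the full lists and 64.3% (63.9 to 64.6) with equal lists. Tinaja-only regions thus stood level with regions of both caves in the first setting and above them in the second. The second setting had lost the narrowest Tinaja peaks, and these shares were not compared at the same width. The Pachón list met Tinaja-only regions more often than Pachón-only regions in both settings.

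Regions where H3K4me3 was listed in a single cave were then counted. Among Tinaja-only H3K27ac regions, 16572 (38.3%) met H3K4me3 in Tinaja and not in Pachón, and 143 (0.33%) the reverse. Regions of both caves leaned to Tinaja as well, with 15930 (21.96%) against 1081 (1.49%). Among Pachón-only regions, 1168 met H3K4me3 in Pachón and not in Tinaja, and 1046 the reverse, which is near even. With H3K27ac lists of equal length these last numbers were 1332 and 2223. The odds ratio for the same cave, which compares the classes with each other, was 129 (108 to 156). Because the Tinaja H3K4me3 list is more than 2 times as long as the Pachón list, both H3K4me3 lists were cut to the same length by width. The numbers were then 5933 and 1517 for Tinaja-only regions and 1775 and 255 for Pachón-only regions, with an odds ratio of 27.2 (23.6 to 31.4). With the lists of both marks cut, it was 44.2. Library numbers recur between these marks, 1889 and 1934 in Pachón and 1934 and 2005 in Tinaja, while every H3K27me3 library carries number 2399. The part of the library numbers in this relation was not tested.

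H3K27me3 listed in a single cave was split much alike in both one-cave classes with the full lists. Pachón-only H3K27ac regions met H3K27me3 in Pachón and not in Tinaja 551 times and the reverse 596 times. Tinaja-only regions met it in Pachón and not in Tinaja 2130 times and the reverse 2595 times. They thus leaned to their own cave, at 6% of the class (5.78 to 6.23) against 4.925% (4.72 to 5.13). Regions of both caves leaned to Pachón, with 2724 against 2526. The odds ratio for the same cave was 1.13 (0.99 to 1.28), and 1.03 (0.91 to 1.15) with H3K27ac lists of equal length. Among regions with no H3K27ac peak of the other cave within 5 kb it was 1.26 (1.04 to 1.53), the only setting whose interval left out 1. As these intervals are too narrow, an excess of the same cave cannot be read from that value. All 3 values were far from those for H3K4me3. H3K27me3 of both caves, at 11806 Tinaja-only and 1499 Pachón-only regions, outnumbered H3K27me3 of one cave in both classes.

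**Figure D4:**
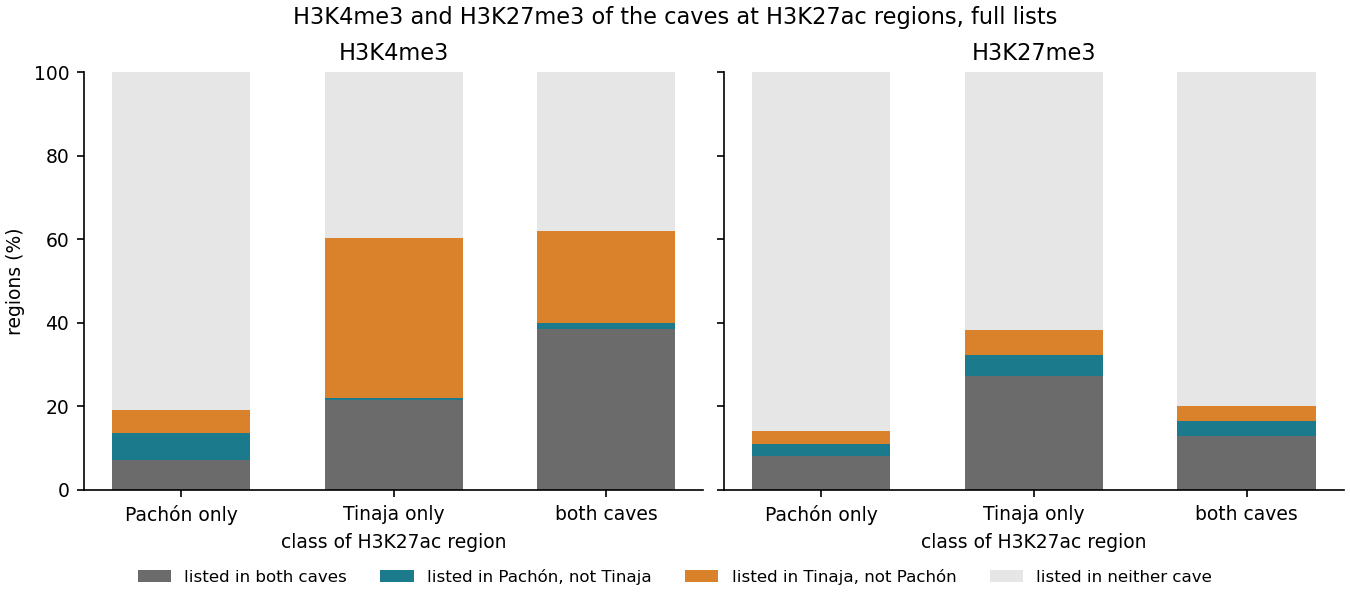
Stacked shares of H3K27ac regions (vertical axis, %) by the cave lists in which H3K4me3 (left) or H3K27me3 (right) was found, for regions of Pachón only, Tinaja only and both caves (horizontal axis), full lists. H3K4me3 listed in Tinaja and not in Pachón makes up 38.3% of Tinaja-only regions and 5.62% of Pachón-only regions. H3K27me3 listed in Tinaja and not in Pachón makes up 6% of Tinaja-only regions, and the reverse 4.925%. In Pachón-only regions these shares are 3.2% and 2.96%.

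The same contrast was read from the side of surface chromatin, with sites fixed by the surface lists and then searched for cave H3K27ac. The 23270 surface H3K4me3 peaks with H3K27ac and without H3K27me3 had the pattern of active promoters. Both caves had H3K27ac at almost all of them, Pachón at 92.7% (92.4 to 93.0) and Tinaja at 94.1% (93.8 to 94.4). The cut to equal length removed Tinaja peaks alone, so it could only lower the Tinaja share. That share was then 91.8% (91.4 to 92.1), below Pachón. At the 39266 surface H3K27ac peaks without either other mark, an enhancer pattern, Pachón had H3K27ac at 74.6% and Tinaja at 73.4%. With the full lists, 4118 of these sites were held by Pachón and not Tinaja against 3639 by Tinaja and not Pachón. With equal lists Tinaja stood at 65.6% (65.1 to 66.1), and the numbers of sites were 6158 and 2608. With the full lists the caves thus stood nearly level at enhancer-patterned sites. The wider gap with equal lists came with the cut of the Tinaja list, so it ranks neither cave as nearer to surface fish.

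At surface sites without H3K27ac the caves stood further apart, with Tinaja above Pachón. Of the 15172 surface H3K4me3 peaks with H3K27me3 and no H3K27ac, a pair of marks known as bivalent where they lie in the same cells, Pachón had H3K27ac at 11.1% (10.6 to 11.6) and Tinaja at 33.0% (32.3 to 33.8). The Tinaja share was 29.7% with equal lists, and 3298 of these sites were then held by Tinaja and not Pachón against 473 by Pachón and not Tinaja. At the 13546 surface peaks of H3K4me3 alone the shares were 13.5% in Pachón and 32.9% in Tinaja, or 27.3% with equal lists. At the 75685 surface peaks of H3K27me3 alone they were 8.58% and 18.7%, or 14.1% with equal lists. Tinaja H3K27ac therefore covered more of the sites that carried H3K4me3, H3K27me3 or both in surface fish without acetylation, by factors of 2.03, 1.64 and 2.67 with equal lists. These factors do not adjust for the greater length of genome that the cut Tinaja list covered, 60.9 Mb against 54.3 Mb.

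**Figure D5:**
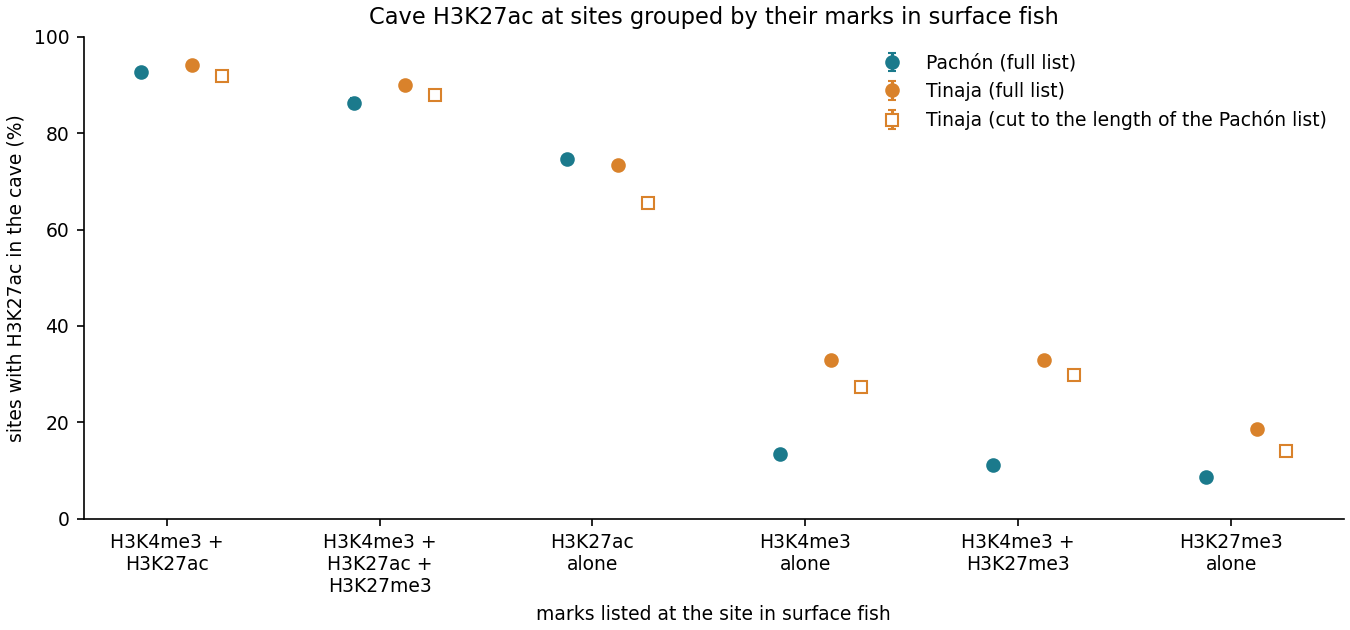
Share of surface sites (vertical axis, %) that meet an H3K27ac peak of Pachón or Tinaja, for sites grouped by the marks listed there in surface fish (horizontal axis); circles are full lists, squares the Tinaja list cut to the length of the Pachón list, bars are exact 95% binomial intervals. With the full lists, Pachón and Tinaja stand at 92.7% and 94.1% at surface H3K4me3 with H3K27ac and no H3K27me3. At surface H3K4me3 with H3K27me3 they stand at 11.1% and 33.0%.

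One-cave regions of Pachón lay close to shared regions more often than those of Tinaja. The nearest region of both caves was within 1 kb for 30.9% of Pachón-only regions (30.2 to 31.5) and for 15.5% of Tinaja-only regions (15.1 to 15.8), with median distances of 2017 and 5137 bp. With equal lists the shares were 28.1% and 14.2%. Recurrence in surface fish fell off with that distance in both classes. It was 37.7% within 1 kb and 15.6% beyond 20 kb for Pachón-only regions, and 21.9% and 6.27% for Tinaja-only regions. Surface H3K27me3 ran the other way, from 5.06% to 29.9% for Pachón-only and from 15.6% to 52.5% for Tinaja-only regions. At each of the 4 distances Pachón-only regions were above Tinaja-only regions for surface H3K27ac and below them for surface H3K27me3.

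Regions with no H3K27ac peak of the other cave within 5 kb numbered 4148 for Pachón, 22.3% of its one-cave class, and 20498 for Tinaja, 47.4%. Pachón-only regions were searched against 117125 Tinaja peaks and Tinaja-only regions against 93527 Pachón peaks. This count was not made with equal lists, so these shares cannot be read as a difference in isolation between the caves. Surface H3K27me3 met 24.3% of the isolated Pachón regions (22.9 to 25.6) and 43.5% of the isolated Tinaja regions (42.8 to 44.2), and surface H3K4me3 met 10.8% (9.92 to 11.8) and 20.8% (20.2 to 21.3). Surface H3K27ac met 16.7% and 7.82%. Of the H3K4me3 lists of the caves, that of Pachón met 23.1% of the isolated Pachón regions and 26.3% of the isolated Tinaja regions, and the longer list of Tinaja met 19.96% and 68.1%. The shares over all 134417 regions, given above, were 21.4% for surface H3K27me3, 26.9% for surface H3K4me3 and 45.5% for surface H3K27ac. They were 30.5% and 53.7% for H3K4me3 of Pachón and of Tinaja. The 4 widest of each set, on placed chromosomes, are named here by coordinates of the lists, counted from 1. No source used here names their build. Whether they lie in genes is not known, as the gene table at hand is of another build.

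All 4 of the widest isolated Tinaja regions carried H3K4me3 and H3K27me3 in every morph and no surface H3K27ac. The widest, on chromosome 13 from 17868520 to 17871311, was a single Tinaja peak of 2792 bp, 34769 bp from the nearest Pachón H3K27ac peak. H3K27me3 covered 2707 bp of it in Pachón, 2681 bp in Tinaja and 2735 bp in surface fish, and H3K4me3 covered 1964, 2729 and 2103 bp in the same order. The next, on chromosome 3 from 59322657 to 59324914, lay 45024 bp from Pachón H3K27ac. Both other marks covered its whole 2258 bp in both caves, and 276 bp (H3K27me3) and 1309 bp (H3K4me3) of it in surface fish. Regions on chromosome 4 from 8566102 to 8568123 and on chromosome 9 from 116281 to 118167 measured 2022 and 1887 bp. Acetylation in Tinaja alone thus lay, at these places, on chromatin with the same pair of marks in all 3 morphs.

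The widest isolated Pachón regions had no such common pattern. The first, on chromosome 17 from 5095420 to 5098465, covered 3046 bp, of which 2460 bp were also acetylated in surface fish. H3K4me3 covered 2590 bp in Pachón and 1943 bp in surface fish, and H3K27me3 covered 714 bp in Pachón. None of the 3 marks was listed there in Tinaja, so both active marks of Pachón and surface fish were absent from the Tinaja lists. On chromosome 13 from 13941941 to 13943871, a Pachón region of 1931 bp met surface H3K27ac over 380 bp. On chromosome 22 from 9736967 to 9738685, H3K4me3 was listed in Pachón alone, over 1588 of 1719 bp, while H3K27me3 was listed over 372 bp in Tinaja, over 525 bp in surface fish and not in Pachón. On chromosome 25 from 13621147 to 13622764, a region of 1618 bp met no H3K4me3 in any morph, and met H3K27me3 in surface fish alone, over 1115 bp.

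The widest regions of both caves were broad domains present in surface fish as well. On chromosome 14 from 38795045 to 38803844, H3K27ac covered 7627 bp in Pachón, 8727 bp in Tinaja and 7146 bp in surface fish, without H3K27me3 in any morph. On chromosome 6 from 11862039 to 11869826 it covered 6995, 7384 and 6768 bp, with 1928 bp of H3K27me3 in surface fish, 508 bp in Pachón and none in Tinaja. On chromosome 22 from 13131488 to 13137594 it covered 5893, 6104 and 5137 bp together with 4974 to 5025 bp of H3K27me3 in each morph. H3K4me3 covered 5066 bp of that domain in Tinaja, against 1991 bp in Pachón and 2336 bp in surface fish. On chromosome 23 from 12702241 to 12707550 the 3 morphs had 5239, 5284 and 5290 bp and no H3K27me3. These domains were ranked by the smaller of the covered lengths of the 2 caves. That rule asks for a long extent in both caves, so their similar extents are no result.

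Regions of one class followed each other along the chromosomes. The region after a Tinaja-only region was also Tinaja-only in 45.9% of cases (45.4 to 46.5), against 30.8% after any region, and after a Pachón-only region the same class followed in 21.9% (21.2 to 22.6) against 14.1%. The longest run of Tinaja-only regions held 21, on chromosome 21 from 10598707 to 10968906. None of them met surface H3K27ac, which met 12.2% of Tinaja-only regions and 45.5% of all regions. H3K4me3 of Tinaja, Pachón and surface fish met 11, 2 and 1 of them, beside 53.7%, 30.5% and 26.9% of all regions. H3K27me3 in the same order met 8, 5 and 3, beside 21.1%, 20.9% and 21.4% of all regions. A run of 19 lay on chromosome 9 from 37233521 to 37391147, and 6 of its regions met surface H3K27ac. The longest runs of Pachón-only regions held 11 each, on chromosome 1 from 2986320 to 3063475 and on chromosome 14 from 29529983 to 29557255. Neither Pachón run met surface H3K27ac, and at most 1 region of each met Pachón H3K4me3. Over all Pachón-only regions these shares were 27.7% and 13.5%, and over all regions 45.5% and 30.5%.

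Among windows of 100 kb, those with the largest surplus of a one-cave class differed in the marks they met. On chromosome 1 from 7500001 to 7600000, 21 of 22 regions were Tinaja-only, with none in Pachón alone. None of the 21 met surface H3K27ac, 9 met Tinaja H3K4me3, and 11, 10 and 8 met H3K27me3 of Pachón, Tinaja and surface fish. Over all regions, 53.7% met Tinaja H3K4me3, and 20.9%, 21.1% and 21.4% met these H3K27me3 lists. Surface H3K27ac met 12.2% of all Tinaja-only regions, 69.9% of shared regions and 45.5% of all regions. On chromosome 7 from 15300001 to 15400000, 24 of 36 regions were Tinaja-only, and 16 of these 24 met surface H3K27ac while none met H3K27me3 in any morph. The other 12 regions of that window were shared with Pachón, and all 12 met surface H3K27ac. On chromosome 15 from 11300001 to 11400000, 19 of 22 regions were Tinaja-only, and 6 of them met surface H3K27ac.

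Pachón-only regions were most concentrated on chromosome 10 from 12400001 to 12500000, with 20 of 33 regions. Of these 20, 1 met surface H3K27ac and none met H3K4me3 of any morph. Over the whole Pachón-only class 27.7% met surface H3K27ac and 79.1% met no H3K4me3 of any morph, against 45.5% and 43.5% of all regions. On chromosome 3 from 60100001 to 60200000 they were 19 of 39, with 20 regions of both caves and none of Tinaja alone, and on chromosome 12 from 18100001 to 18200000 they were 20 of 50. Windows dominated by shared regions lay on chromosome 5, from 18500001 to 18600000 with 44 of 49 and from 36100001 to 36200000 with 43 of 49. A further one lay on chromosome 23 from 400001 to 500000 with 48 of 57. In the first of these, all 44 shared regions met surface H3K27ac, beside 69.9% of the whole shared class. The windows were the most extreme of the genome for their class and give no test.

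Whole chromosomes varied little. The Pachón-only share ran from 12.0% on chromosome 6 (11.1 to 12.8) to 16.9% on chromosome 10 (15.7 to 18.1). The Tinaja-only share ran from 28.6% on chromosome 3 (27.6 to 29.6) to 34.1% on chromosome 9 (32.7 to 35.5). On unplaced scaffolds the Tinaja-only share was 36.1% (35.6 to 36.7), above that of each of the 25 placed chromosomes, and the Pachón-only share was 13.3% (12.9 to 13.6). On placed chromosomes alone the ratio of shares between the one-cave classes was 2.25 for surface H3K27ac, 2.47 for H3K4me3 and 2.85 for H3K27me3.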

How the data were processed

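The deposited files are BED lists of peaks, 1 for each morph and mark. Bcl2fastq 2.20, Bowtie2, SAMtools and MACS2 are named in the submitters' processing notes. Not given in the sources used here: settings, genome build and the way libraries were combined. The deposited score is 0 for every peak, so peaks have a position and width only. Depth differences would change which weak peaks are listed.

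Overlap meant 1 bp or more. Equal lists kept the widest peaks, ties by position. Ratios of shares and odds ratios have normal 95% intervals on the log scale. Ratios over 10 bins (deciles) of region width are Mantel-Haenszel ratios. The members, lists and rules were chosen with earlier results of these data known. Regions were named by rule. Of the shared, these were the 4 with the largest smaller covered length of the 2 caves. Of the isolated, they were the 4 widest per cave. Also named were the 3 windows of 100 kb (10 or more regions) with the largest class surplus, and the 2 longest runs. The gene table (AstMex3_surface) is of another build: on chromosome 1 the last gene ended at 134 Mb and the last peak at 26.95 Mb. Interval arithmetic was tested on simulated data, with 0 mismatches. Software was Matplotlib 3.10.9, SciPy 1.17.1, NumPy 2.4.6 and Python 3.11.15.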

Additional observations from a re-analysis of the deposited data

How the results depend on the processing

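Shares, counts and ratios moved with the settings, and only the H3K27me3 odds ratio crossed 1. It was 0.92 (0.77 to 1.09) in the wider 50% of each list, and its interval left out 1 only for isolated regions, at 1.26 (1.04 to 1.53). With lists of equal length, regions of both caves were 55.0% and Tinaja-only regions 27389, and the surface ratios were 2.14 (H3K27ac), 2.87 (H3K4me3) and 3.12 (H3K27me3). In the wider 50% the share of both caves was 57.3%, with 7974 Pachón-only and 20234 Tinaja-only regions and ratios of 1.31, 1.70 and 1.77. With peaks up to 1 kb apart merged it was 56.3%, with 10813 Pachón-only regions and ratios of 2.37 (H3K4me3) and 2.27 (H3K27me3). On placed chromosomes it was 55.1%, with ratios of 2.47 and 2.85 for these marks. Without a peak of the other cave within 5 kb, 4148 Pachón-only and 20498 Tinaja-only regions were left, by construction, with ratios of 2.13, 1.91 and 1.79. Within 10 bins of width the ratios were 2.37, 2.00 and 2.58. With equal lists and bins together, added after the data were seen, they were 2.53 (H3K27ac), 2.10 (H3K4me3) and 2.49 (H3K27me3). Requiring overlap of 50% of the shorter peak could only drop regions of both caves, so the one-cave counts and all ratios stayed as they were by construction. The share of both caves was then 53.9%.

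The odds ratio of H3K4me3 with H3K27ac of the same cave was 73.0 with H3K27ac lists of equal length, 32.3 in the wider 50%, 106 on placed chromosomes, 234 for isolated regions, 27.2 with equal H3K4me3 lists, and, added after the data were seen, 94.3 with equal lists and bins and 44.2 with the lists of both marks equal. This odds ratio was 155 with peaks up to 1 kb apart merged and 127 within 10 bins of width, beside 129 with the full lists. The cause of these shifts was not tested. Leaving out a library was not possible with 1 pooled list per cave. No paired analysis was possible because the lists carry no replicates.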
